A study of Homo sapiens with 32 samples.

Results

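H1299 lung cancer cells that kept their own SMARCA2 were made to express a bromodomain mutant or a wild-type SMARCA2 cDNA, and the 3 arrays of the first were compared with the 3 arrays of the second. These 6 arrays were taken by their labels from the 32 arrays of the series. With the mutant, 24 of 34 genes induced by interferon were higher than with wild-type SMARCA2, against 4.85% of all genes tested. Lower were 18 of 36 genes of the integrated stress response, 9 of 30 immediate early genes and 8 of 20 YAP and TAZ targets, against 2.29% of all genes, and most of the others in these lists did not pass the test. The differences were small: of 12564 genes tested, 897 passed the test and only 8 of these differed by at least 1.5-fold.

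SMARCA2 is an ATPase of the SWI/SNF complexes, which move and remove nucleosomes and so open or close DNA to transcription factors. Its ATPase domain drives the remodelling. Its bromodomain binds acetylated lysines such as those on histone tails. SMARCA4 is the alternative ATPase of these complexes, and H1299 is an established line known to lack functional SMARCA4. The comparison asks which transcripts depend on an intact bromodomain in the added protein while the cell's own SMARCA2 is present.

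Both groups carried shLuc, a control short hairpin RNA (shRNA) against luciferase, and differed in the cDNA they expressed: wild-type SMARCA2 (WT) or SMARCA2 with a mutated bromodomain (BRD). Another 6 groups of H1299 cells were used beside them, with 3 arrays each. GFP control cells and ATPase dead SMARCA2 cells (ATPdead) carried the same control hairpin. WT and BRD cells were also measured with S2sh7, a hairpin against SMARCA2, as were GFP and ATPdead cells. All were stable isogenic lines, untreated, grown in RPMI with serum and given 1 batch label. Which residue the bromodomain mutation changes, and whether the arrays labelled biological replicates came from separate infections or cultures, is not stated in the labels. The p-values therefore measure only the spread between these arrays.

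Expression is given as log2 of the RMA intensity of 1 probe set per gene. Replicate arrays correlated at 0.9979 to 0.9988 within the WT and BRD groups, and the 3' to 5' difference of ACTB, a measure of RNA integrity, overlapped between them (0.24 to 0.27 with WT and 0.23 to 0.26 with BRD, in log2). Of 5 carcinoma markers, the keratins KRT8, KRT18 and KRT7 and the mesenchymal filament gene VIM were above the log2 minimum of 5, while the epithelial adhesion gene EPCAM was below it. Of 16 leukocyte and endothelial markers with a probe set, 11 were below that minimum, PTPRC and CD3D among them. The summed intensity of all 16 was 338 to 353 on the WT arrays and 330 to 346 on the BRD arrays, and their part in any result was not tested.

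The brightest SMARCA2 probe set gave log2 5.45, 5.44 and 5.34 with GFP, 6.88, 6.74 and 7.12 with WT, and 6.83, 6.64 and 6.76 with BRD. On this probe set both cDNA groups lay above GFP on every array, and they overlapped each other. Of the other 4 tested SMARCA2 probe sets, 1 was called higher with WT than with GFP (0.47, limma adjusted p = 0.0465), and none with BRD. The BRD minus WT difference was -0.17 (95% interval -0.50 to 0.17), so the 2 cDNAs were not shown to be equal in level. Of the 5 SMARCA2 and 6 SMARCA4 probe sets bright enough to test, none was called between BRD and WT. SMARCA4 read 7.30, 7.25 and 7.43 with WT and 7.23, 7.19 and 7.25 with BRD (difference -0.11, limma adjusted p = 0.408). Probe sets of SMARCA2 did not move in 1 direction, ranging from -0.17 to 0.21, and which part of the transcript each reads was not analysed here.

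Promoters of the responding genes are shown first, because the interferon group shares a sequence. Interferon signals through its receptors to a transcription factor complex that contains IRF9 and binds the interferon-stimulated response element (ISRE). The integrated stress response begins with kinases that phosphorylate eIF2alpha, favours translation of ATF4, and ATF4 then binds C/EBP-ATF response elements (CARE). The 250 bases upstream of the RefSeq start (GRCh38.p14) are printed 5' to 3' on the gene's strand, with matches on either strand in capitals. The ISRE was searched as GAAA, any 2 bases and GAAA again, and the CARE as TGATGNAA; where matches overlap, the run is in capitals throughout. IFIT1, ISG15, IFI6 and IFITM1 are printed as interferon genes higher with BRD whose windows hold the ISRE letters. ASNS, a stress gene lower with BRD, and CHAC1, which was not called, are printed as holders of the CARE letters. In this order the windows lie at chr10:89392373-89392622 (plus strand), chr1:1013247-1013496 (plus), chr1:27672193-27672442 (minus), chr11:313790-314039 (plus), chr7:97872409-97872658 (minus) and chr15:40953221-40953470 (plus).
IFIT1: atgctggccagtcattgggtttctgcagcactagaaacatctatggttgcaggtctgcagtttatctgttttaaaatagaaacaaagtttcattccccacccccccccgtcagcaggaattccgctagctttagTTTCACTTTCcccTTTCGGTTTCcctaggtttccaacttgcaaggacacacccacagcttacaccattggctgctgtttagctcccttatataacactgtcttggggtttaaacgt
ISG15: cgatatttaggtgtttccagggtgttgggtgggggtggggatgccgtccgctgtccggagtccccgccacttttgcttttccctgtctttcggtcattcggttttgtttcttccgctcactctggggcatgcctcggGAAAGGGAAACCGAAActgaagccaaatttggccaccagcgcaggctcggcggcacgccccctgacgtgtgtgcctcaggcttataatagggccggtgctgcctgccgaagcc
IFI6: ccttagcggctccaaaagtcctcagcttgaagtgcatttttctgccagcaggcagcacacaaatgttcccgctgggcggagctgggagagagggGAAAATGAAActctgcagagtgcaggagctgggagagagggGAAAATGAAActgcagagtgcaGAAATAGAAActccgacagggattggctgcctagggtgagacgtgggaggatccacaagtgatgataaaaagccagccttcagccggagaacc
IFITM1: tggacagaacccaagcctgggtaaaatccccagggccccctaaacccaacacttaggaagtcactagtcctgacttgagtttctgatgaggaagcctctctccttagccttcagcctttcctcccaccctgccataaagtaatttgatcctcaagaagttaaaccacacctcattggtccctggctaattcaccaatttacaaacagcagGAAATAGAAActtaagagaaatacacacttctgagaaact
ASNS: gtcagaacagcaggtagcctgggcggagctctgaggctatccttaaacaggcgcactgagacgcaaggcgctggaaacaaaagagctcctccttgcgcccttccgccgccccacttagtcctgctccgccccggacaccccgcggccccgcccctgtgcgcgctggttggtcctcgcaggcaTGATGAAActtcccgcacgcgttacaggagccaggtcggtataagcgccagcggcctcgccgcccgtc
CHAC1: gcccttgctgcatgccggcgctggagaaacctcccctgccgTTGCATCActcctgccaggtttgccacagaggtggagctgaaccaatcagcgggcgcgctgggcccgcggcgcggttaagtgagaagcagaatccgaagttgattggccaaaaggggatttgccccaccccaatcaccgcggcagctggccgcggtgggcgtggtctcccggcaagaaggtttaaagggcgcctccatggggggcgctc

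Of 27305 promoters in the RefSeq table, 3.07% held the ISRE letters, against 21 of the 30 interferon-stimulated genes tested that had a promoter there (70%). Over the 10194 tested genes with a promoter in the table the share was 2.17%. The letters stood in 15 of 21 interferon genes called higher with BRD and in 6 of 9 of those not called. Over all genes called higher, 23 of 509 promoters held them (4.52%), and 15 of these 23 were the interferon genes just counted. Over all genes called lower, 9 of 240 promoters held them (3.75%). IFI6 held 3 matches, IFIT1 and ISG15 held 2 each and IFITM1 held 1, while the OAS1 window held none with these letters. The CARE letters stood in 3.19% of all promoters and in 1.38% of those of tested genes. They stood in 5 of 31 integrated stress response genes (16.1%), 3 among the 17 called lower and 2 among the 14 not called. A match is a description of the sequence and not evidence of binding.

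Across all genes, limma called 897 of 12564 (7.14%) between BRD and WT at an adjusted p under 0.05, with 609 higher with BRD (4.85%) and 288 lower (2.29%). At an unadjusted p under 0.05 there were 2548. The median difference over all genes was 0.01 log2 and the median size of a called difference was 0.18. The 3 BRD and 3 WT arrays did not overlap for 3238 genes (25.8%), among them 885 of the 897. Of the 897, 4 passed the intensity filter (log2 over 5 in at least 3 arrays) only through the group where they are higher. Called genes at 1.5-fold or more numbered 8 (0.0637%), all higher with BRD. The balance of directions moved with the scaling: 544 were higher and 384 lower after repeated quantile normalization, and 679 and 172 with each array centred on its median. With only the 6 arrays in the fit, and so a less precise spread, 258 genes were called. Without shLuc WT replicate 1 or 2, or BRD replicate 1, the count was 564, 499 or 589.

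**Figure D1:**
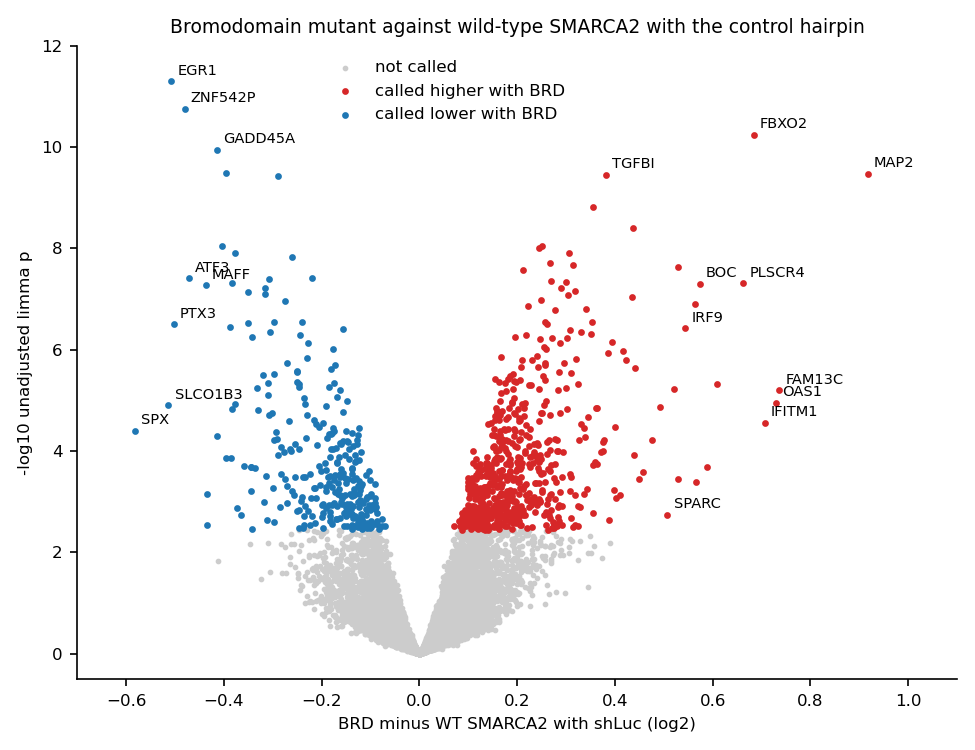
Each point is 1 of 12564 genes, with the BRD minus WT difference in log2 on the x axis and -log10 of the unadjusted limma p on the y axis, for 3 against 3 arrays with shLuc. Red points were called higher with BRD (609) and blue points lower (288); EGR1 has the smallest p of the labelled falls and MAP2 the largest rise, at 0.92.

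Interferon-stimulated genes encode antiviral effectors made after the cell senses viral nucleic acid or interferon. Of 45 listed, 34 were bright enough to test, 24 of these were higher with BRD and none was lower. The median of the 34 was 0.27 against 0.01 over all genes, and all 34 differences were above 0. In these bulk arrays a change in RNA per cell and a change in the share of cells that express a gene cannot be told apart. The 10 not called included IFI44 (0.29), BST2 (0.29) and GBP1 (0.04). Another 11, among them MX1, RSAD2 and IFI44L, were too dim to test.

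OAS1, which makes the 2',5'-oligoadenylates that activate RNase L, read log2 4.79, 4.91 and 4.99 on the WT arrays and 5.66, 5.60 and 5.62 on the BRD arrays. Every BRD array was above every WT array, although both groups lay near the minimum of 5. The difference was 0.73 (SE 0.12, 95% interval 0.47 to 0.99), a 1.66-fold higher level (limma adjusted p = 0.00105), and a second probe set of OAS1 gave 0.70. IFI27, an interferon-induced mitochondrial protein gene, read 7.25, 7.12 and 7.18 with WT and 7.68, 7.54 and 7.37 with BRD. Its arrays did not overlap either, but the difference of 0.35 (SE 0.11) missed the threshold (limma adjusted p = 0.0594). It passed in 4 of 12 alternative settings.

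IFITM1, a membrane protein that restricts viral entry, read 6.61, 6.79 and 6.44 with WT and 7.24, 7.42 and 7.29 with BRD, a difference of 0.71 (limma adjusted p = 0.00192). IFITM2 and IFITM3, its close relatives, differed by 0.25 each (adjusted p = 3.5e-05 and 9.36e-06). The WT arrays of IFITM3 read 11.41, 11.38 and 11.36 and its BRD arrays 11.63, 11.65 and 11.61. All 3 genes separated the groups on every array, and because their sequences are alike their probe sets may read one another. IFIT1, which binds RNA without a host cap, read 7.73, 7.89 and 7.66 with WT and 8.28, 8.33 and 8.37 with BRD (0.56, adjusted p = 3.97e-05). IFIT3 (0.42), IFIT2 (0.28) and IFIT5 (0.13) of the same family were also called higher. ISG15, a ubiquitin-like modifier, read 10.24, 10.30 and 10.26 with WT and 10.70, 10.73 and 10.53 with BRD, again without overlap. That was a difference of 0.39 (limma adjusted p = 0.000208).

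PLSCR1, an interferon-induced scramblase, read 10.01, 9.99 and 9.98 with WT and 10.27, 10.23 and 10.22 with BRD (0.25, adjusted p = 9.36e-06). LGALS3BP, a secreted glycoprotein that binds galectin-3, read 7.85, 7.90 and 7.80 with WT and 8.30, 8.25 and 8.32 with BRD (0.43, adjusted p = 3.26e-05). Both genes kept the groups apart. SAMD9 (0.44), PARP9 (0.42), IFI35 (0.35), OASL (0.33), DDX60 (0.31) and OAS3 (0.23) were among the other members called higher.

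The genes that sense nucleic acid and relay the interferon signal moved less as a list. Of 25 nucleic acid sensors, IRFs and STATs tested, 6 were higher with BRD, none lower and 19 not called (median 0.04). Over all genes 4.85% were higher. IRF9, the DNA-binding subunit of the complex that occupies the ISRE, read 7.40, 7.43 and 7.30 with WT and 7.92, 7.88 and 7.95 with BRD. This gap, clear on all arrays, was 0.54 (SE 0.07, limma adjusted p = 9.39e-05). IRF7 (0.35), the adaptor STING1 (0.31), the RNA-sensing kinase EIF2AK2 (0.24) and the RNA sensors IFIH1 (0.21) and RIGI (0.17) were the others. Tested singly, 1 of 3 EIF2AK2 probe sets and 1 of 2 IFIH1 probe sets were called. MHC class I and immunoproteasome genes serve antigen presentation. Of 13 tested, 6 were higher, against 4.85% of all genes, and none was lower (median 0.12). They were the proteasome activator PSME1 (0.19), the immunoproteasome subunits PSMB10 (0.18) and PSMB8 (0.12), the peptide-loading factor TAPBP (0.17), HLA-C (0.14) and HLA-B (0.12). With only the 6 arrays in the fit 1 of these 6 was called, and the 3 tested probe sets of TAPBP ranged from -0.20 to 0.17. The probe sets of HLA-B and HLA-C may also read one another.

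**Figure D2:**
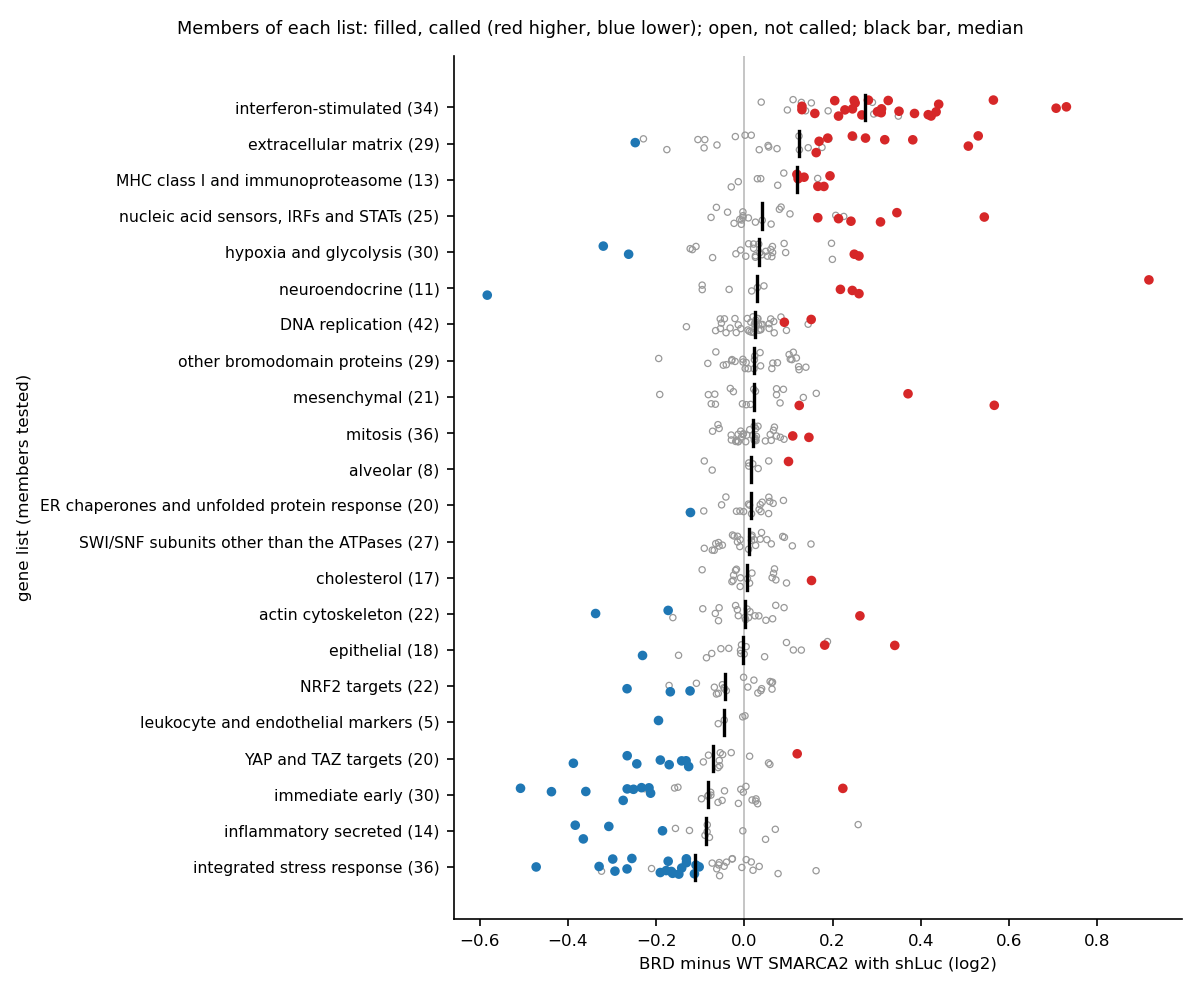
The BRD minus WT difference in log2 with shLuc (x axis) is plotted for every tested member of 22 gene lists (rows, with the number of members tested). Filled points were called (red higher, blue lower), open points were not, and black bars are medians; all 34 interferon-stimulated genes lie right of 0, and 18 of 36 integrated stress response genes are called lower.

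Of 36 integrated stress response genes tested, 18 were lower with BRD, none was higher and 18 were not called (median -0.11). The count was 11 with each array centred on its median and 6 with only the 6 arrays in the fit. Of 20 ER chaperones and unfolded protein response genes, 1 was called, HERPUD1, and the list's median was 0.01.

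ATF3, a stress-induced transcription factor, read 8.73, 8.87 and 8.82 with WT and 8.38, 8.32 and 8.30 with BRD. Every BRD array was below every WT array. The difference of -0.47 (SE 0.05, 95% interval -0.58 to -0.36) is a 1.39-fold lower level (limma adjusted p = 2.21e-05), and its second probe set gave -0.50. DDIT3, the pro-apoptotic factor CHOP, read 9.42, 9.52 and 9.41 with WT and 9.16, 9.18 and 9.11 with BRD (-0.30, adjusted p = 0.000415). ASNS, asparagine synthetase, read 11.40, 11.42 and 11.43 with WT and 11.23, 11.26 and 11.24 with BRD, so that a fall of only -0.17 separated the groups (adjusted p = 0.000306). MTHFD2, of mitochondrial folate metabolism, differed by -0.16 (adjusted p = 0.000647), while its second probe set gave -0.05 and was not called.

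Other called members have several roles in this response. They include the pseudokinase TRIB3 (-0.18), SESN2 (-0.33), which restrains mTORC1, and the phosphatase subunits PPP1R15A (-0.25) and PPP1R15B (-0.13), which reverse eIF2alpha phosphorylation. Amino acid transporters fell with them: SLC7A11 (-0.27), SLC7A5 (-0.19), SLC3A2 (-0.17) and SLC7A1 (-0.13). So did the transsulfuration enzyme CTH (-0.29) and the tRNA synthetases GARS1 (-0.10) and CARS1 (-0.15). CHAC1, which degrades glutathione, gave -0.21 and missed the threshold (adjusted p = 0.0535). ATF4 itself (-0.03), ATF5 (0.08) and the tRNA synthetases WARS1 (-0.03), AARS1 (-0.06) and SARS1 (-0.04) were also not called.

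Immediate early genes are switched on by growth factors and stress within minutes. Of 30 tested, 9 were lower, against 2.29% of all genes, and 1 was higher (median -0.08). EGR1, a zinc finger transcription factor of this class, read 9.64, 9.68 and 9.66 with WT and 9.18, 9.12 and 9.16 with BRD. Its 3 WT arrays lay close together and far from the BRD arrays, a difference of -0.51 (SE 0.03, limma adjusted p = 6.43e-08), and all 3 of its tested probe sets were called lower. MAFF, a small MAF factor, read 9.17, 9.18 and 9.18 with WT and 8.78, 8.76 and 8.67 with BRD (-0.44, adjusted p = 2.3e-05). The AP-1 subunits FOS (-0.36) and JUN (-0.27) were lower. JUND, also an AP-1 subunit, was the member called higher (0.22), but its 4 tested probe sets ranged from -0.16 to 0.22. KLF10 (-0.25), DUSP1 (-0.23), DUSP5 (-0.21), SGK1 (-0.22) and CCN1 (-0.27) were the other falls.

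Targets of YAP and TAZ, the coactivators held back by the Hippo pathway, had 8 lower and 1 higher of 20 tested (median -0.07). CCN2, a matricellular growth factor, read 10.77, 10.81 and 10.81 with WT and 10.47, 10.30 and 10.46 with BRD. The groups stood apart, by -0.39 (limma adjusted p = 9.12e-05). AMOTL2 (-0.24) and the Hippo kinase LATS2 (-0.17), both feedback inhibitors, were lower, as were CCN1, GADD45B (-0.19) and TEAD1 (-0.14), while AMOTL1 was higher (0.12). With only the 6 arrays in the fit 4 were called lower. Inflammatory secreted and signalling genes had 4 lower and none higher of 14, against 2.29% of all genes lower. They were TRAF1 (-0.38), CXCL1 (-0.37), TNFAIP3 (-0.31) and PLAUR (-0.19). In that same fit 2 remained called. The CXCL1 arrays overlapped between groups (4.79 to 5.31 with WT and 4.67 to 4.80 with BRD), and CXCL1 passed the intensity filter only through the WT arrays, so it lends the count no support. It missed the threshold in 5 of 12 alternative settings.

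Of 29 extracellular matrix genes tested, 9 were higher with BRD and 1, THBS1 (-0.25), was lower (median 0.12). Over all genes 4.85% were higher and 2.29% lower. With only the 6 arrays in the fit, 5 of the list were called higher. SPARC, a collagen-binding matricellular protein, read 5.02, 5.40 and 5.39 with WT and 5.62, 5.93 and 5.79 with BRD. Its arrays did not overlap, but WT replicate 1 lay well under the other two. The difference was 0.51 (SE 0.14, limma adjusted p = 0.0316), and it missed the threshold in 4 of 11 alternative settings. TGFBI, a matrix protein induced by TGF-beta, read 11.14, 11.19 and 11.19 with WT and 11.60, 11.51 and 11.55 with BRD (0.38, SE 0.03, adjusted p = 5.78e-07). Its separation was many times the spread within a group. Tenascin TNC (0.53), the cross-linking enzyme LOXL1 (0.32), versican VCAN (0.27), COL6A1 (0.24), SPP1 (0.19), MFAP2 (0.17) and the laminin chain LAMA5 (0.16) were the other rises. Of 5 COL6A1 probe sets tested, 1 was called in this direction.

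The largest rise of all was MAP2, which stabilises microtubules in neurons, at 6.09, 6.07 and 6.29 with WT and 7.23, 6.88 and 7.09 with BRD. That is 0.92 log2 (SE 0.08) or 1.89-fold (limma adjusted p = 5.78e-07). A second MAP2 probe set gave 0.41 and was not called (limma adjusted p = 0.0767). FBXO2, a ubiquitin ligase subunit that recognises glycoproteins, read 6.62, 6.63 and 6.73 with WT and 7.35, 7.39 and 7.29 with BRD (0.68, adjusted p = 2.41e-07). Neither gene's groups overlapped. FAM13C (0.74), the scramblase PLSCR4 (0.66), GASK1B (0.61), the collagen chain COL9A3 (0.59), the Hedgehog co-receptor BOC (0.57) and the calcium-binding protein gene S100A4 (0.57) complete the 10 largest rises with OAS1 and IFITM1. The 3 tested probe sets of BOC ranged from -0.06 to 0.57.

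SPX, which encodes the peptide spexin, had the largest fall. It read 5.64, 5.71 and 5.82 with WT and 5.10, 5.15 and 5.17 with BRD (-0.58, SE 0.11, limma adjusted p = 0.00252). The transporter SLCO1B3 fell by 0.51, the pentraxin PTX3 by 0.50, the zinc finger pseudogene ZNF542P by 0.48 (adjusted p = 1.1e-07), ADTRP by 0.43 and VXN by 0.43. GADD45A, a growth arrest gene, read 11.51, 11.57 and 11.59 with WT and 11.18, 11.09 and 11.16 with BRD (-0.41, adjusted p = 3.58e-07). The arrays of these genes did not overlap, by the rule that named them. EGR1, ATF3 and MAFF make up the rest of the 10 largest falls. VXN passed the intensity filter only through the WT arrays, where it is high, so its difference is a description. VXN and ADTRP missed the threshold in 7 and 4 of 11 alternative settings.

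The counts in the other lists stand beside 4.85% of all genes called higher and 2.29% called lower. No SWI/SNF subunit outside the ATPases (27 tested) and no other bromodomain protein (29) was called. Of 36 mitosis and 42 DNA replication genes 2 were higher in each list, and none lower. Mesenchymal genes had 3 higher of 21 (S100A4, MMP1 at 0.37 and TGFB1 at 0.12), of which 1 remained called without shLuc WT replicate 1. Epithelial genes had KRT80 (0.34) and KRT8 (0.18) higher and CLDN1 (-0.23) lower of 18, and actin cytoskeleton genes MYL9 (0.26) higher and CALD1 (-0.34) and LIMA1 (-0.17) lower of 22. A second MYL9 probe set gave 0.03 and was not called. The 3 tested LIMA1 probe sets ranged from -0.22 to 0.16, and LIMA1 missed the threshold in 4 of 12 alternative settings. NRF2 targets had 3 lower of 22 (SLC7A11, GCLM at -0.17 and TXNRD1 at -0.12), of which none was called with only the 6 arrays in the fit. In the hypoxia and glycolysis list ADM (-0.32) and PFKFB3 (-0.26) were lower and P4HA2 (0.25) and ENO2 (0.26) higher, of 30. Neuroendocrine genes had 4 higher of 11 (MAP2, ENO2, SNAP25 at 0.24 and CHGB at 0.22) and SPX lower; 2 were called higher without shLuc WT replicate 1 or 2 or BRD replicate 1, and 1 with only the 6 arrays in the fit. Cholesterol genes had 1 higher of 17, and alveolar genes 1 of 8. Of 5 leukocyte and endothelial markers bright enough to test, CD3E was lower (-0.20, adjusted p = 0.0465).

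The GFP and ATPdead arrays place the 2 SMARCA2 groups against cells without active added protein. WT against GFP and BRD against GFP share the GFP arrays, and each shares a group with BRD against WT, so their values are set side by side and not tested against each other. WT against GFP called 503 genes (4%), 1.31% of all genes higher and 2.7% lower. BRD against GFP called 257 (2.05%), with 1.25% higher and 0.796% lower. ATPdead against GFP called 44 of 12564 genes, 12 higher and 32 lower. ATPdead against WT, which uses the same WT arrays as BRD against WT, called 487, 259 higher and 228 lower. A difference from WT was therefore not particular to BRD. In the interferon list 17 of 34 genes were lower with WT than with GFP (median -0.19), whereas with BRD 5 were higher and 1 lower (median 0.05). The mean log2 level of this list was 7.81, 7.80 and 7.82 on the ATPdead arrays. It was 7.55, 7.61 and 7.57 with WT and 7.89, 7.85 and 7.86 with BRD. OAS1 read 5.44, 5.41 and 5.53 with GFP and 5.49, 5.29 and 5.63 with ATPdead, above the WT arrays in both cases and overlapping BRD only with ATPdead. IRF9 differed from GFP by -0.40 with WT (adjusted p = 0.00345) and by 0.15 with BRD (adjusted p = 0.36). MAP2 differed from GFP by -0.64 with WT (limma adjusted p = 0.000117) and by 0.28 with BRD (adjusted p = 0.0681). It was 0.73 higher with ATPdead than with WT (adjusted p = 1.11e-05). PLSCR4 and BOC were placed otherwise: -0.16 and -0.07 with WT, not called, and 0.50 each with BRD, called.

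Stress genes took another position. In the integrated stress response list 2 of 36 were higher with WT than with GFP (median 0.02), and 8 were lower with BRD (median -0.08). The mean log2 level of this list was 8.86, 8.88 and 8.86 on the ATPdead arrays and 8.88, 8.87 and 8.86 on the BRD arrays. ATF3 read 8.61, 8.51 and 8.51 with GFP, between the WT and BRD arrays, and 8.38, 8.37 and 8.31 with ATPdead, which overlapped BRD. Its differences from GFP were 0.26 with WT (limma adjusted p = 0.00876) and -0.21 with BRD (adjusted p = 0.0497). EGR1 read 9.56, 9.57 and 9.45 with GFP and differed from it by 0.14 with WT and -0.37 with BRD (adjusted p = 0.028 and 6.92e-06). YAP and TAZ targets had 8 of 20 higher with WT (median 0.12) and 2 higher with BRD (median 0.004). SPARC was different: GFP read 4.80, 4.56 and 4.83, and both WT (0.54, adjusted p = 0.0345) and BRD (1.05, adjusted p = 0.00031) were above it. TGFBI stood at 0.01 with WT and at 0.40 with BRD against GFP (adjusted p = 0.882 and 2.49e-06).

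**Figure D3:**
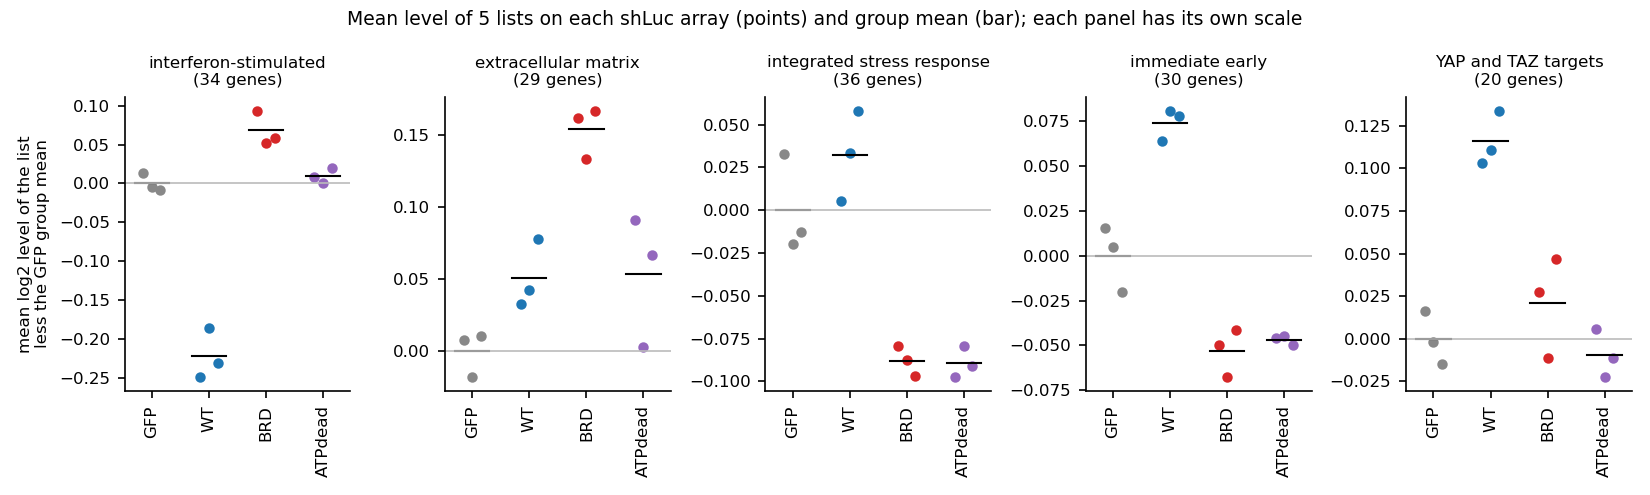
The mean log2 level of the tested members of 5 lists is plotted for each of the 12 shLuc arrays (points) and as a group mean (bar), less the mean of the GFP group, with a scale of its own in each panel. In the interferon panel the 3 WT arrays lie below all others, and in the integrated stress response panel the BRD and ATPdead arrays lie below the WT and GFP arrays.

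The same cDNA comparison was made with S2sh7, in 6 arrays that are not among those above. There BRD against WT called 23 genes (0.183%), 4 higher (0.0318%) and 19 lower (0.151%), with 1399 at an unadjusted p under 0.05. That count was 3 to 14 when any 1 array was left out, and 0 with only those 6 arrays in the fit. Of the 288 genes lower with shLuc, 13 were also called lower with S2sh7, which is 4.51% of the 288 and 68.4% of the 19. Of the 609 higher, 1 was called higher and 1 lower. With S2sh7 the difference was above 0 for 74.5% of the 609 and 18.1% of the 288, against 48% of all genes.

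ATF3 was lower with both hairpins. With S2sh7 it read 7.25, 7.21 and 7.30 with WT and 6.65, 6.77 and 6.56 with BRD, without overlap (-0.59, SE 0.05, limma adjusted p = 1.18e-05). In the integrated stress response list 5 of 36 genes were lower with S2sh7 (median -0.09): ATF3, TRIB3 (-0.25), CHAC1 (-0.32), ASNS (-0.15) and SLC3A2 (-0.18). Outside that list EGR1 (-0.23), MAFF (-0.31), GADD45A (-0.20), the signalling adaptor TRAF1 (-0.40) and the tight junction gene CLDN1 (-0.25) were called lower again, and FBXO2 higher (0.26). The remaining called rises were GPR27 (0.27), the RAS pathway inhibitor SPRY4 (0.21) and ARPP19 (0.16). OAS1 was not called with S2sh7. It read 4.19, 4.41 and 4.31 with WT and 4.18, 4.10 and 4.11 with BRD (-0.17, adjusted p = 0.671), under the minimum of 5 throughout. IFI27 gave -0.32 (adjusted p = 0.304) and SPARC 0.01 (adjusted p = 0.991).

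Whether the effect of the mutation differed between hairpins was tested as the difference of the 2 effects, which uses the same 6 shLuc arrays again. This called 67 genes (0.533%), 50 higher (0.398%) and 17 lower (0.135%), with 1488 at an unadjusted p under 0.05. The count fell to 43, 29, 38, 36 and 42 without shLuc WT replicate 1, shLuc WT replicate 2, shLuc BRD replicate 2, S2sh7 WT replicate 2 and S2sh7 BRD replicate 3, and to 14 with only the 12 arrays in the fit. In the interferon list 11 of 34 were called, all with a more positive effect under shLuc (median 0.25), and 1 of the 34, IFI6, was lower with S2sh7. IFI6 read 10.44, 10.46 and 10.43 with WT and 10.81, 10.79 and 10.64 with BRD under shLuc, but 10.17, 10.30 and 10.24 with WT and 9.99, 9.99 and 9.91 with BRD under S2sh7. The order of the groups was reversed without overlap. The effects were 0.30 and -0.27, and their difference 0.57 (SE 0.06, limma adjusted p = 8.39e-05). For OAS1 the difference of effects was 0.90 (adjusted p = 0.0193), for ISG15 0.53, for LGALS3BP 0.48 and for IFIT1 0.45.

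Among the stress genes no difference between hairpins was called in the 36, and ATF3 gave 0.12 (adjusted p = 0.562), which does not show the effects to be equal. For IFI27 (0.67, adjusted p = 0.0577) and SPARC (0.50, adjusted p = 0.299) it also missed the threshold. The effect was more negative under shLuc than under S2sh7 for EGR1 (-0.28), JUN (-0.24), GADD45A (-0.22) and AMOTL2 (-0.24). The same held for ZNF542P (-0.34), ZNF45 (-0.30) and RND3 (-0.29). It was more positive under shLuc for MAP2 (0.57), PLSCR4 (0.58), BOC (0.52), FBXO2 (0.42) and TGFBI (0.24). With S2sh7 itself JUN (-0.04), AMOTL2 (-0.004), PLSCR4 (0.08) and BOC (0.05) were not called, while EGR1, GADD45A and FBXO2 were. Absolute levels differed between hairpins before any comparison: with GFP, S2sh7 called 32 of 34 interferon genes and 30 of 36 integrated stress response genes lower than shLuc, against 19.5% of all genes (35.4% called in either direction).

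**Figure D4:**
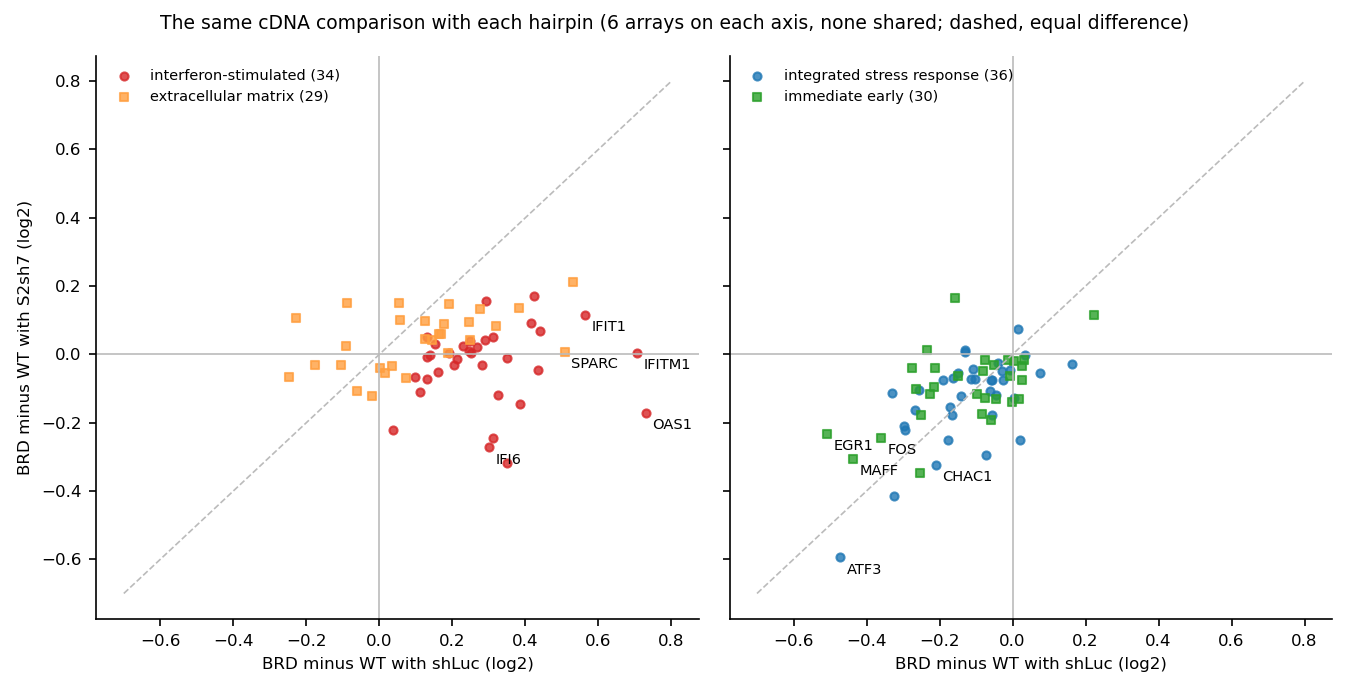
Each point is a tested member of 2 lists per panel, with the BRD minus WT difference in log2 under shLuc on the x axis and under S2sh7 on the y axis; the axes share no arrays and the dashed line marks equal differences. Interferon-stimulated genes (median 0.27 on the x axis) scatter around 0 on the y axis, while ATF3 is low on both, at -0.47 and -0.59.

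Of the 609 genes higher with BRD under shLuc, 201 (33%) were called higher and 182 (29.9%) lower by S2sh7 in GFP cells, which share no arrays with this comparison. Over all genes these shares were 15.9% and 19.5%. Of the 288 lower with BRD, 160 (55.6%) were lower with the hairpin and 31 (10.8%) higher. ATF3 (-2.35), GADD45A (-1.34), EGR1 (-0.94) and DDIT3 (-0.90) belong to the genes lower in both, and OAS1 (-1.90), IFI6 (-1.69) and TGFBI (-1.36) to those higher with BRD but lower with the hairpin. MAP2 was higher in both (0.93 with the hairpin).

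**Figure D5:**
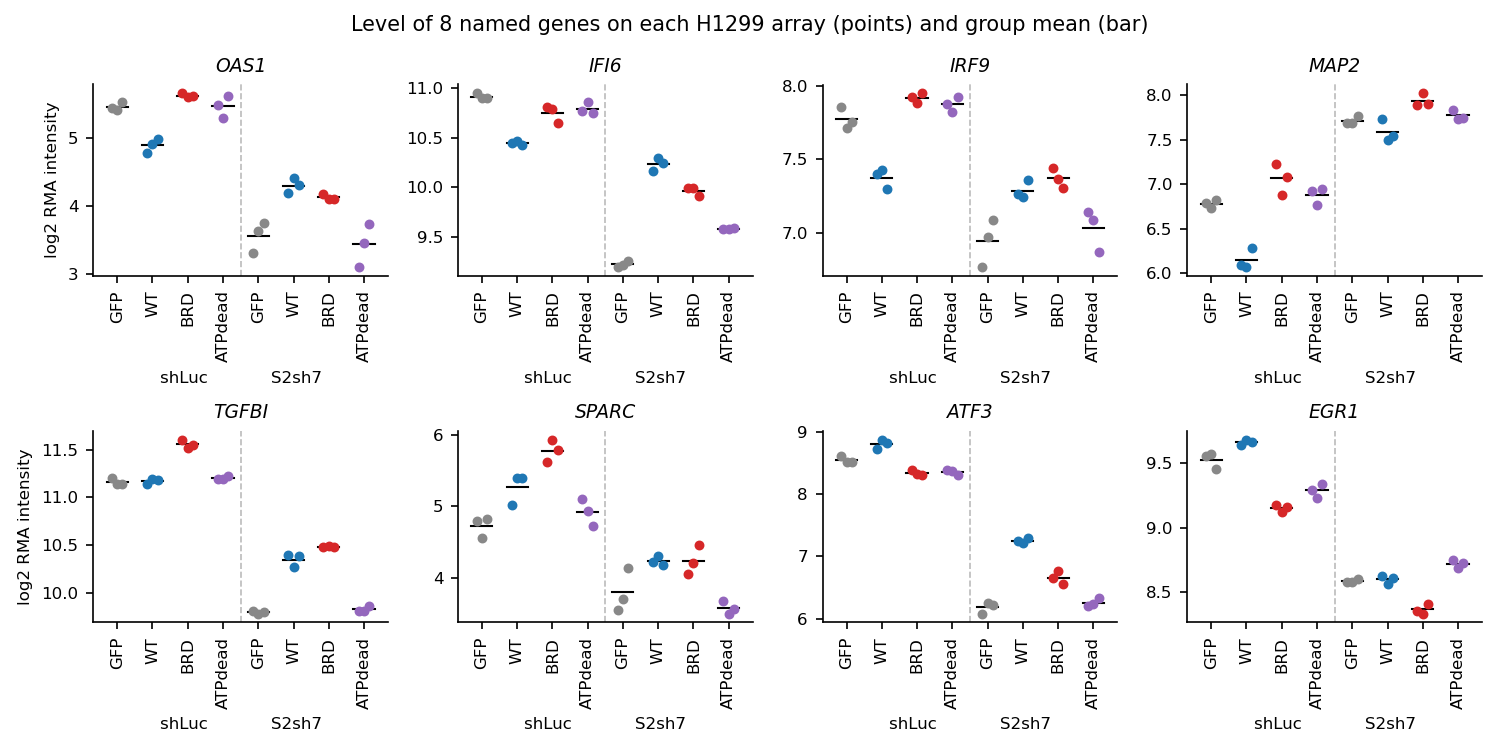
The log2 RMA intensity of 8 genes is plotted for each of 24 H1299 arrays (points) with the group mean (bar), shLuc groups left and S2sh7 groups right of the dashed line, with a scale of its own in each panel. Under shLuc the 3 BRD arrays lie above the 3 WT arrays for OAS1, IFI6, IRF9, MAP2, TGFBI and SPARC and below them for ATF3 and EGR1; under S2sh7 IFI6 has the opposite order.

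A related comparison exists in the lung cancer line A549, where bromodomain mutant and WT SMARCA4 cDNAs were each measured on 1 array per hairpin, without replicates, so no test was run and the values describe single arrays. With shLuc, ATF3 read 7.69 with WT and 7.48 with BRD (-0.22), and with S2sh7 the difference was -0.40. OAS1 read 7.63 and 7.67 with shLuc, a difference of 0.03, and 0.04 separated them with S2sh7. SPARC differed by -0.09 and -0.01, and IFI27 by 0.27 and 0.05.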

How the data were processed

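Total RNA was hybridised to Affymetrix HG-U133 Plus 2.0 arrays after 3' in vitro transcription labelling. The deposited values are RMA intensity on a linear scale; RMA and limma are named in the submitters' processing notes, without versions. The design had assumed log2 values, so log2 was taken with no pseudocount. No array was left out of the 24 from H1299.

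The platform annotation gave 41097 of 54675 probe sets a single gene symbol, 1801 more than one and 11777 no symbol; only the first were used, and 54 of their symbols were absent from the RefSeq gene table (GRCh38.p14). Each of 19775 genes was read by its probe set with the highest mean, and the 12564 with log2 over 5 in at least 3 H1299 arrays were tested. Limma 3.58.1 (R 4.3.3, the R package data.table, 1.17.8) fitted 1 mean for each of 8 groups (16 residual degrees of freedom, median residual SD 0.0619 log2), with default eBayes and Benjamini-Hochberg adjustment. The calling procedure was tested on simulated data with known shifts and independent noise, which does not test the calls reported here. The number of arrays limits the precision, and counting depth does not apply. Figures used Python 3.11.15, numpy 2.4.6 and matplotlib 3.10.9.

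Named genes were OAS1, SPARC, ATF3 and IFI27; SMARCA2 and SMARCA4; the 10 largest rises and falls called without overlap of arrays; in each list with 3 or more called genes, the 4 called with the lowest adjusted p; and the 4 largest called rises and falls with S2sh7 and for the difference between hairpins, of which 1 gene is not reported here. Further list members are given as examples chosen after their values were seen. The comparison, the genes and the 22 lists were chosen with earlier results of these data known. As alternatives, genes were read by all their probe sets averaged or singly, the filter was dropped or raised to log2 6, and arrays were quantile normalized again, centred or weighted. The fit was also run with trended robust eBayes, on the compared arrays alone, with a replicate block, at 1.5-fold and without each array in turn.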

Additional observations from a re-analysis of the deposited data

Results flagged for a closer look

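For 27 genes among those named or in the interferon, sensor and antigen presentation lists, the effect of the bromodomain mutation differed between the control hairpin and S2sh7 by a called test of that difference (limma adjusted p under 0.05). Groups of 3 arrays are too small for a test of outlying arrays.

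In the interferon list the effect with shLuc less that with S2sh7 was 0.90 log2 for OAS1, 0.57 for IFI6, 0.56 for SAMD9L, 0.53 for ISG15, 0.48 for LGALS3BP, 0.45 for IFIT1, 0.44 for OASL and 0.36 for IFI35. It was 0.25 for PLSCR1, 0.23 for IFITM3 and 0.21 for IFITM2. IRF9 gave 0.46, and the antigen presentation genes PSMB8, HLA-C and HLA-B gave 0.24, 0.22 and 0.19.

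Outside these lists the difference of effects was 0.58 for PLSCR4, 0.57 for MAP2, 0.52 for BOC, 0.42 for FBXO2 and 0.24 for TGFBI. It was negative for GADD45A (-0.22), JUN (-0.24), AMOTL2 (-0.24), EGR1 (-0.28), RND3 (-0.29), ZNF45 (-0.30) and ZNF542P (-0.34).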

How the results depend on the processing

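The count of genes called between BRD and WT with shLuc (897) was 587 with no filter, 1511 with array weights, 258 with only the arrays compared and 8 at 1.5-fold, and 499 to 736 with 1 array left out; the 564, 499 and 589 were without shLuc WT replicate 1, shLuc WT replicate 2 and BRD replicate 1. The other settings gave 609 to 1115. With S2sh7 the count (23) was 7 with no filter, 35 with log2 over 6, 38 after repeated quantile normalization, 7 with centring, 101 with trend and robust eBayes, 14 with array weights, 0 with only the arrays compared, 1 at 1.5-fold and 3 to 14 with 1 array left out. The difference between hairpins (67) was called 42 times with the mean of all probe sets, 18 with no filter, 107 with log2 over 6, 189 with trend and robust eBayes, 138 with array weights, 14 with only the arrays compared, 1 at 1.5-fold and 29 to 73 with 1 array left out. Single genes were followed in 11 or 12 of these settings. Probe sets read singly, the dropped or raised filter, trended robust eBayes and the 1.5-fold threshold were not among them. Of 78 named genes, 46 kept direction and side of the threshold in every setting followed. Over 930 gene settings 74 lost the call, 6 gained it and 1 changed sign. That was SMARCA2, at 0.00209 with the mean of all probe sets, itself never called. The causes were not tested, except that a fold threshold calls fewer genes by construction. With the replicate number as a block the counts were 844, 15 and 60; same-numbered WT and BRD arrays deviated together only weakly (correlations -0.08, 0.06 and 0.14, and 2 of 3 WT arrays fitted their own number best), and the labels state no shared origin, so the numbers were not taken to pair the samples. Dim genes such as OAS1 and SPARC, near the minimum of log2 5, are measured least precisely.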

Other observations

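Zinc finger genes on chromosome 19, most of which encode KRAB repressors, were grouped after their values were seen and are described without a test. Of 187 with a ZNF symbol tested there, 21 were lower with BRD than with WT under shLuc (11.2%) and none was higher, with a median of -0.04 log2. Over all genes tested 2.29% were lower and 4.85% higher. Among the 21, ZNF583 (-0.37) passed the intensity filter only through the WT arrays, where it is high, so it lends the count no support. Of 203 ZNF genes elsewhere 1 was lower (0.493%) and 2 were higher. Of 770 other genes on chromosome 19, 13 were lower (1.69%) and 57 higher. ZNF542P and ZNF45 belong to the first set: ZNF45 read log2 10.27, 10.29 and 10.24 with WT and 9.87, 9.86 and 9.88 with BRD, without overlap. With S2sh7 the same comparison called 1 of the 187 lower, against 0.151% of all genes, at a similar median of -0.04.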
